A study of Homo sapiens with 6 samples.

Results

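Mitotic kinases are the protein kinases that carry a cell into and through division. The 10 described here are CDK1, PLK1, PLK4, AURKA, AURKB, BUB1, BUB1B, TTK, NEK2 and MELK. They were chosen by name, and all probe sets annotated to them under the current symbol or an older alias were taken. The 10 genes, with 21 probe sets, stand among 11963 genes and 22215 probe sets tested. All 10 were measured and none was removed by a filter.

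The arrays came from WI-38, a normal human diploid fibroblast strain from fetal lung, in 2 groups of 3 samples. RASv12 samples were from WI-38 cells that overexpressed RASv12, a RAS small GTPase locked in its active state, and the labels call them senescent. Control samples were from WI-38 cells with a wild-type genotype, called growing. The labels' protocols describe retroviral infection, culture at 3% oxygen and 2 rounds of amplification for every sample. They name neither the RAS gene used nor any empty vector in control cells. Without such a vector, the effects of infection and of RASv12 cannot be told apart. The label fields give Cy3 for RASv12 samples and Cy5 for control samples, on an array type that reads a single colour. Where the dyes were used as stated, dye cannot be told apart from group. Separate cultures are not stated for the samples of a group, so p-values reflect only the spread among these arrays, which may be technical.

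In a dividing cell, CDK1 bound to a cyclin starts mitosis, PLK1 and the Aurora kinases build the spindle and attach chromosomes to it, and BUB1, BUBR1 and TTK hold back chromosome separation until every chromosome is attached. Transcripts of most of these kinases build up late in the cell cycle and are low in cells that have left it. The DREAM complex holds such genes down in arrested cells, and MYBL2 and FOXM1 switch them on in dividing ones, largely through a short promoter element called the CHR. Another short promoter element, the CCAAT box, is bound by the factor NF-Y. Senescence is a lasting arrest that normal fibroblasts enter when a RAS oncogene is active.

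The labels were set against the data first. HRAS had intensities of 816, 753 and 990 in RASv12 replicates 1 to 3, against 222, 189 and 234 in control replicates 1 to 3, and rose by 1.89 ± 0.15 (SE) on the log2 scale (limma, adjusted p = 1.4e-04). Whether its probe set reads the introduced sequence was not tested. All 8 fibroblast markers lay above the background level in both groups. Their summed intensity was 7531 to 8831 in RASv12 samples and 18168 to 20560 in control samples. By limma 7 of the 8 were called down, beside 15.5% of all genes, with COL3A1 lowest at -4.49, and VIM was not called. EPCAM and CDH1 of 6 epithelial markers, CDH5, VWF and ERG of 5 endothelial markers and PTPRC, CD14, LYZ and MS4A1 of 5 leukocyte markers lay within background on all 6 arrays. KRT8, KRT18, KRT19, SFTPC, PECAM1, TEK and CD3E did not lie within background throughout. KRT18 averaged 115 in RASv12 and 88.0 in control samples and was called up by limma (adjusted p = 0.0499). KRT19 averaged 17.6 in RASv12 and 52.7 in control samples and was called down (adjusted p = 0.011). KRT8, at 17.0 in RASv12 and 30.4 in control samples, was called down too (adjusted p = 0.045). TEK averaged 26.4 in RASv12 and 78.6 in control samples and was called down (adjusted p = 0.0023). The summed intensity of epithelial markers was 174 to 214 in RASv12 and 208 to 242 in control samples. That of endothelial markers was 49.0 to 109 in RASv12 and 106 to 139 in control samples, and that of leukocyte markers 35.0 to 70.7 in RASv12 and 10.6 to 44.4 in control samples. The part of these levels in the results was not tested. On each array, 48.6% to 54.1% of probe sets lay above background. Arrays of a group correlated at 0.975 to 0.987 over all probe sets, and arrays of different groups at 0.912 to 0.928. GAPDH had a 5′ over 3′ signal ratio of 1.15 to 1.24 in RASv12 and 0.999 to 1.18 in control samples. The ratio for ACTB was 0.89 to 0.956 in RASv12 samples and 0.713 to 0.959 in control samples, with control replicate 1 the lowest. The part of these ratios in the results was not tested.

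All 10 mitotic kinase genes fell in RASv12 cells. The adjusted p values ran from 9.0e-06 to 6.8e-04 (limma with Benjamini-Hochberg adjustment over all genes, threshold 0.05), while 15.5% of all genes were called down and 13.9% up. The log2 changes ran from -2.90 for NEK2 to -1.49 for PLK1, with a median of -2.04 beside 0.020 over all genes. All 10 were at least 2-fold lower by the fitted change, as were 5.02% of all genes. For all 10 genes the highest RASv12 array lay below the lowest control array, an order of the groups that 21.6% of all genes shared. In these bulk samples, fewer dividing cells and less kinase RNA per cell cannot be told apart.

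Much of the remaining signal in RASv12 cells could not be told from background. Background was set at an intensity of 27.98, the highest value that 27 probe sets for bacterial transcripts reached on any array. For 8 of the 10 kinases the RASv12 mean lay at or under that level while the control mean lay above it, a pattern found for 4.96% of all genes. For 6 of them, CDK1, PLK4, BUB1, BUB1B, TTK and NEK2, all 3 RASv12 arrays lay there. Such a gene is given as "at least" a fold lower, with each dim array raised to the background level. These bounds use deposited intensities, without normalization or the 16 added before the fit. They can therefore exceed the fitted change, which that addition compresses. The bounds ran from 2.85-fold for PLK4 to 8.16-fold for CDK1, whose fitted change was 7.00-fold. With dim genes at their bound the member median was -1.99, a value that mixes both scales. AURKA and MELK stayed above background on every array.

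**Figure D1:**
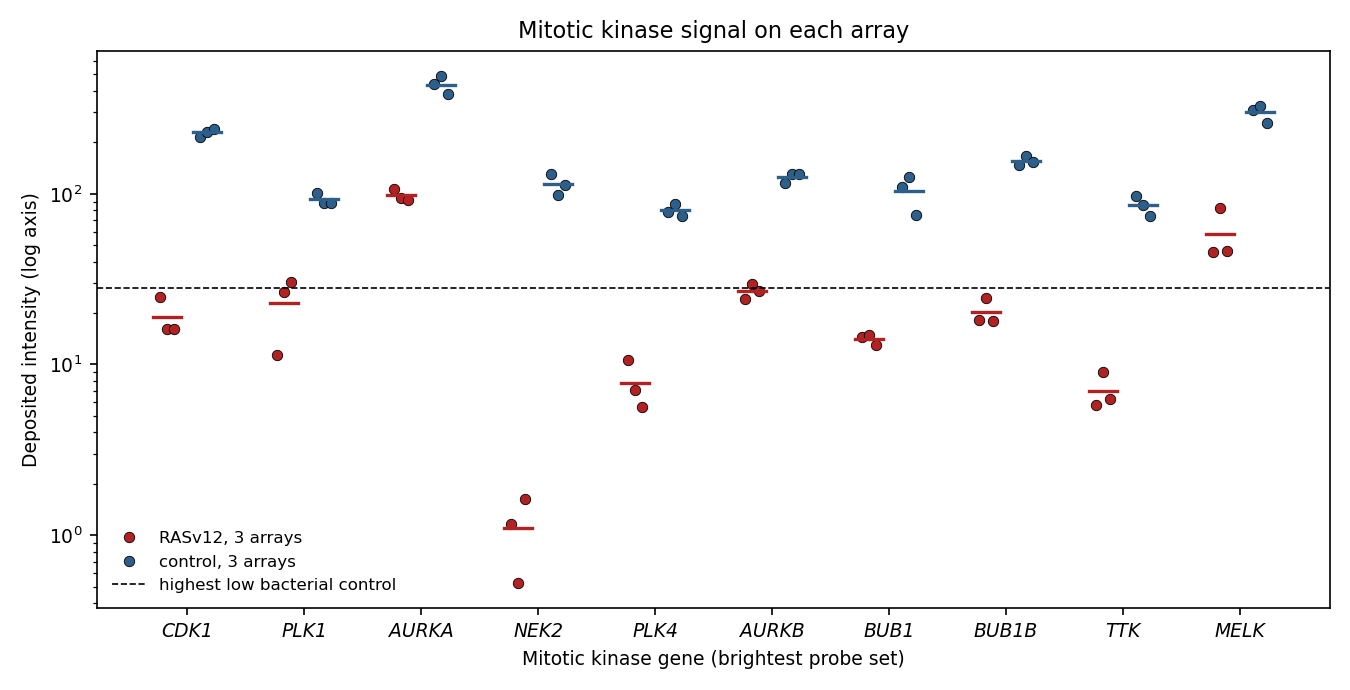
Deposited intensity (arbitrary units, log axis) of each mitotic kinase gene by its brightest probe set, with RASv12 arrays left of control arrays, 1 point per array and a bar at the group mean; the dashed line is the background level of 27.98. For all 10 genes the 3 RASv12 points lie below the 3 control points, and only AURKA and MELK keep every RASv12 point above the line.

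Promoter sequence was available in RefSeq for 8 of the 10 genes, and AURKA and TTK are named only. The 250 bases before each annotated start (GRCh38.p14) were searched on both strands for 4 exact motifs. These were TTTGAA for the CHR, TTCGAA for its variant, CCAAT for the CCAAT box and GGCGGGAA for the E2F site. The CHR letters stood in the windows of 3 of the 8 genes, CDK1, PLK1 and BUB1B, and in 4 of their 12 starts, against 13.3% of 35116 starts of all genes. CCAAT stood in the windows of 6 genes, AURKB, BUB1, CDK1, NEK2, PLK1 and PLK4, and in 8 of the 12 starts, against 32.0% of all starts. Neither the CHR variant, found in 1.19% of all starts, nor the E2F letters, found in 2.72%, stood in any of the 12 windows. These matches are descriptions of letters and not binding sites, and the stretches searched for the CDK1 starts overlap, as do those for the AURKB starts.

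The stretches before 5 starts are given to show how these letters are placed near the start in genes that fell. A CCAAT box of PLK4, at -86 to -82 before its last start and downstream of its other starts, is given by position only. Each runs 5′ to 3′ on the strand of its gene and ends at the base before the annotated start, which is position -1, and capitals mark a CHR (TTTGAA) or a CCAAT box (CCAAT, or ATTGG where it lies on the opposite strand). No 2 of the marked motifs overlap. The PLK1 stretch is chr16:23678769-23678888 (+), BUB1B is chr15:40160949-40161068 (+), BUB1 is chr2:110678064-110678183 (-) and NEK2 is chr1:211675622-211675741 (-). For CDK1 the last 30 bases before the downstream start are given, chr10:60778448-60778477 (+).
PLK1: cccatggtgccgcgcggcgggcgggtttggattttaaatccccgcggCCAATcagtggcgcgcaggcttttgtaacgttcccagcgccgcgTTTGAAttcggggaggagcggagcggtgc
CDK1: ccctttagcgcggtgagTTTGAAactgctc
BUB1B: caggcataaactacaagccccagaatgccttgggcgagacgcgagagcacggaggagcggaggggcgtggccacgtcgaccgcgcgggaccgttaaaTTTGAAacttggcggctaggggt
BUB1: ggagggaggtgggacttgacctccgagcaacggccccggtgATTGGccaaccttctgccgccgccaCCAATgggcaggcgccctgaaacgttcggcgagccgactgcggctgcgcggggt
NEK2: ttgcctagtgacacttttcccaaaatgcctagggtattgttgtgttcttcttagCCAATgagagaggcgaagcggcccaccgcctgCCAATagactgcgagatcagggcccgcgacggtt

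The CHR letters lay at positions -29 to -24 in PLK1, -23 to -18 in BUB1B and -13 to -8 before the downstream CDK1 start. In PLK1 a CCAAT box lay upstream of the CHR, at -73 to -69. BUB1 held CCAAT boxes at -79 to -75, on the opposite strand, and at -54 to -50. NEK2 held them at -66 to -62 and -34 to -30. The downstream CDK1 start had a further CHR at -69 to -64 and CCAAT boxes at -78 to -74 and -46 to -42, both on the opposite strand.

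**Figure D2:**
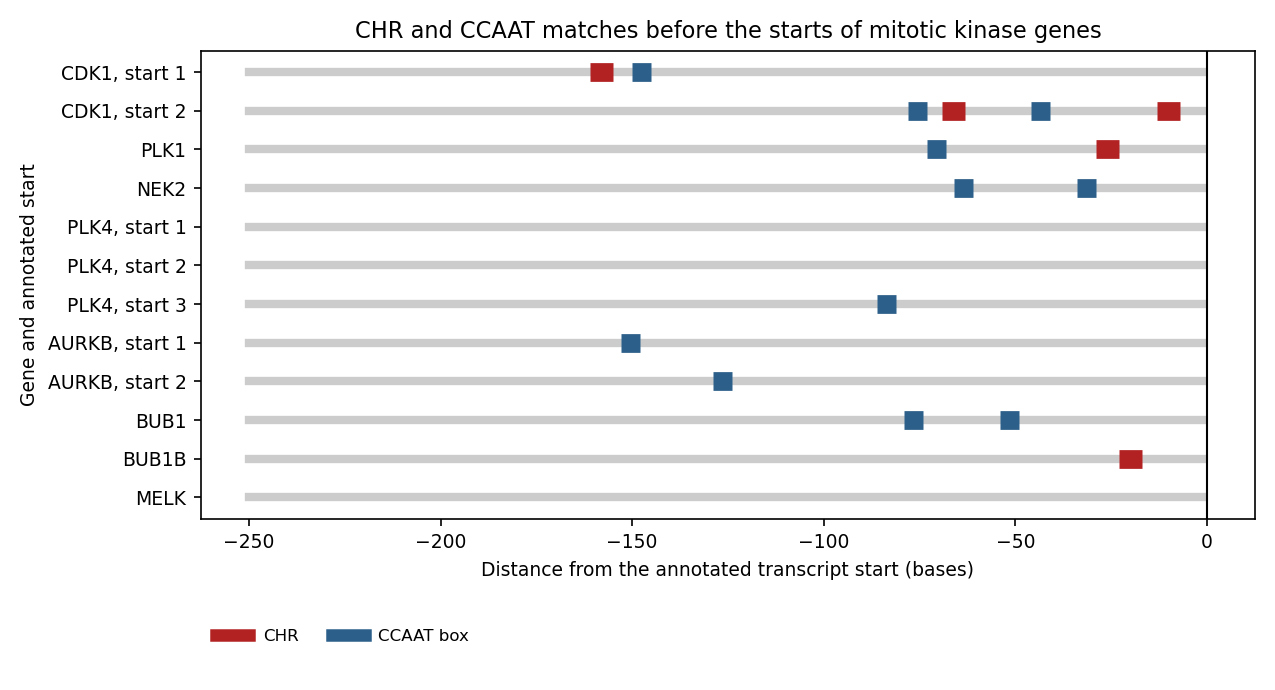
Motif positions in the RefSeq promoter windows of the 8 mitotic kinase genes with an entry, 1 row per annotated start, with distance from the start in bases on the horizontal axis and coloured blocks, drawn slightly wider than the motif, for the CHR and the CCAAT box. CHR marks within 30 bases of the start are seen for PLK1, BUB1B and 1 start of CDK1, and the single MELK start carries no mark.

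CDK1, the kinase whose binding to B-type cyclins starts mitosis, had 24.8, 16.1 and 16.2 in RASv12 replicates 1 to 3, against 215, 231 and 240.3 in control replicates 1 to 3. The RASv12 arrays all lay within background and the control arrays all far above it, with no overlap. CDK1 fell by 2.81 ± 0.17 on the log2 scale (adjusted p = 3.6e-05), and was at least 8.16-fold lower with RASv12. Its other 2 probe sets fell too. Probe set 203213_at had 8.02, 8.69 and 10.9 in RASv12 cells, against 153, 227 and 105 in control cells, and changed by -2.75 ± 0.24 (adjusted p = 3.6e-04 over probe sets). Probe set 203214_x_at, whose suffix marks probes that can match other transcripts as well, had 14.8, 24.1 and 17.2 in RASv12 cells, against 157, 226 and 182 in control cells, and changed by -2.55 ± 0.16. The 3 CDK1 probe sets did not overlap between groups on any array.

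PLK1 is the Polo-like kinase of centrosome maturation, spindle assembly and mitotic exit. Its intensities were 11.4, 26.5 and 30.6 in RASv12 replicates 1 to 3, against 101, 88.6 and 88.7 in control replicates 1 to 3. Replicate 1 was the lowest RASv12 array and replicate 3 lay just above background, and the groups did not overlap. PLK1 fell by 1.49 ± 0.16 (adjusted p = 6.8e-04), at least 3.21-fold lower with RASv12. Without RASv12 replicate 1 the change was -1.30 (adjusted p = 6.3e-04).

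AURKA encodes Aurora A, which matures centrosomes and builds the spindle poles. Its brightest probe set, 208079_s_at, had 107, 95.04 and 91.5 in RASv12 replicates 1 to 3, against 438, 489 and 382 in control replicates 1 to 3. Every array was above background and every RASv12 array below every control array, so this change was measured on both sides. AURKA averaged 97.7 ± 7.92 in RASv12 cells and 436 ± 53.4 in control cells (SD, n = 3 each) and fell by 1.98 ± 0.12 (adjusted p = 4.8e-05). Its probe set 204092_s_at, also above background throughout, had 96.2, 101 and 112 in RASv12 cells, against 223, 315 and 282 in control cells. That probe set changed by -1.26 ± 0.14 (adjusted p = 9.4e-04 over probe sets), and its 95% interval, -1.59 to -0.94, did not overlap that of the brightest, -2.27 to -1.68. A further probe set, 208080_at, lay within background on all 6 arrays and had a log2 change of -0.098 (adjusted p = 0.77). With the mean of all 3 probe sets AURKA changed by -1.11 (adjusted p = 2.2e-04).

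NEK2, a NIMA-related kinase that frees the paired centrosomes from each other before mitosis, had 1.16, 0.528 and 1.62 in RASv12 replicates 1 to 3, against 130, 98.6 and 113 in control replicates 1 to 3. The RASv12 values were far under the background level and carry no order among themselves. NEK2 fell by 2.90 ± 0.12 (adjusted p = 9.0e-06) and was at least 4.03-fold lower with RASv12. Its second probe set, 211080_s_at, had 7.62, 2.64 and 17.0 in RASv12 cells, against 39.1, 41.8 and 43.2 in control cells, and fell by 1.22 ± 0.18, at least 1.48-fold. The log2 change of NEK2 was -1.43 with a pseudocount of 64, -5.80 with a pseudocount of 1 and -2.06 with the mean of both probe sets, where CDK1 had the larger fall at -2.70.

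PLK4 is the kinase that starts centriole duplication. Probe set 204887_s_at had 10.7, 7.09 and 5.64 in RASv12 replicates 1 to 3, against 78.2, 87.4 and 74.5 in control replicates 1 to 3. All RASv12 arrays lay within background, and no control array came near them. PLK4 fell by 1.97 ± 0.14 (adjusted p = 9.0e-05), at least 2.85-fold lower with RASv12. Its other 2 probe sets lay within background in both groups, so no fold is given. Of these, 204886_at was called down at -0.84 (adjusted p = 0.0099 over probe sets) and 211088_s_at was not called, at -0.34 (adjusted p = 0.23). With the mean of all 3 probe sets PLK4 changed by -1.05 (adjusted p = 6.3e-04).

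AURKB encodes Aurora B, the kinase of the chromosomal passenger complex, which corrects faulty attachments and drives cytokinesis. Intensities of 24.1, 29.8 and 27.0 were recorded in RASv12 replicates 1 to 3, against 115, 130 and 130 in control replicates 1 to 3. The RASv12 arrays sat around the background level, 2 of 3 under it, and the control arrays lay close together far above. AURKB fell by 1.69 ± 0.11 (adjusted p = 4.6e-05) and was at least 4.38-fold lower with RASv12. AURKC, the Aurora kinase known from germ cells, was not called (adjusted p = 0.81), and its mean lay within background in both groups.

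Among the spindle checkpoint kinases, TTK encodes MPS1, which starts the checkpoint signal at unattached kinetochores. TTK had 5.77, 9.01 and 6.25 in RASv12 replicates 1 to 3, against 97.3, 86.3 and 74.5 in control replicates 1 to 3. The RASv12 arrays were all within background and the control arrays all well above it. TTK fell by 2.11 ± 0.12 (adjusted p = 3.0e-05), at least 3.06-fold lower with RASv12.

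BUB1 is recruited to kinetochores by MPS1 and marks the inner centromere. Its brightest probe set, 209642_at, had 14.5, 14.9 and 13.0 in RASv12 replicates 1 to 3, against 109, 126 and 75.3 in control replicates 1 to 3. Control replicate 3 was the lowest of its group and still above every RASv12 array. BUB1 fell by 1.94 ± 0.18 (adjusted p = 2.8e-04), at least 3.61-fold lower with RASv12. Of its other 4 probe sets, 215509_s_at had 2.39, 3.64 and 3.62 in RASv12 cells, against 38.2, 51.7 and 51.9 in control cells, and changed by -1.69 ± 0.12. The other 3 lay within background on all 6 arrays and were not called, with log2 changes of -0.32, -0.20 and 0.11. With the mean of all 5 probe sets BUB1 changed by -0.81 (adjusted p = 0.0012).

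BUB1B encodes BUBR1, part of the complex that inhibits the anaphase promoting complex. It had 18.3, 24.4 and 18.0 in RASv12 replicates 1 to 3, against 147, 166 and 153 in control replicates 1 to 3. The control arrays were close together, and no RASv12 array lay above background. BUB1B fell by 2.23 ± 0.12 (adjusted p = 2.5e-05) and was at least 5.54-fold lower with RASv12.

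MELK is an AMPK-related kinase found at high levels in dividing and embryonic cells. Its intensities were 45.6, 82.6 and 46.0 in RASv12 replicates 1 to 3, against 311, 329 and 260.0 in control replicates 1 to 3. RASv12 replicate 2 stood well above the other RASv12 arrays and below every control array, and all arrays were above background. MELK averaged 58.1 ± 21.3 in RASv12 cells and 299.9 ± 35.7 in control cells (SD, n = 3 each) and fell by 2.11 ± 0.21 (adjusted p = 4.1e-04). Without RASv12 replicate 2 the change was -2.33 (adjusted p = 2.7e-04).

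The order of the 10 changes is not settled by these arrays, and the place of NEK2 changed with the processing. In the main fit, the 95% interval of NEK2, -3.18 to -2.62, overlapped that of CDK1 and of no other member. The CDK1 interval, with its upper end at -2.42, lay below those of TTK, AURKA, PLK4, BUB1, AURKB and PLK1. Both genes rest on RASv12 values within background, and differences between members were not tested. Each of the 9 neighbouring pairs in the order, from NEK2 and CDK1 over BUB1B, TTK, MELK, AURKA, PLK4, BUB1 and AURKB to PLK1, had overlapping 95% intervals. The SD of log2 values between arrays ran from 0.042 for NEK2 to 0.41 for MELK in RASv12 cells and from 0.070 for BUB1B to 0.33 for BUB1 in control cells. With a pseudocount of 64 in place of 16, the changes of the 10 genes ran from -1.81 to -0.84, and with a pseudocount of 1 from -5.80 to -2.03. At a pseudocount of 64, NEK2 (-1.43) fell less than CDK1 (-1.81), AURKA (-1.62) and MELK (-1.58). With the mean of a gene's probe sets, NEK2 (-2.06) fell less than CDK1 (-2.70), BUB1B (-2.235), TTK (-2.11) and MELK (-2.11).

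Over the 21 probe sets, 16 fell, none rose and 5 were not called, beside 13.0% called down and 11.3% called up among all probe sets. The 5 that were not called lay within background on all 6 arrays. PLK1, AURKB, BUB1B, TTK and MELK had a single probe set, so nothing on the array checks their value a second time.

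**Figure D3:**
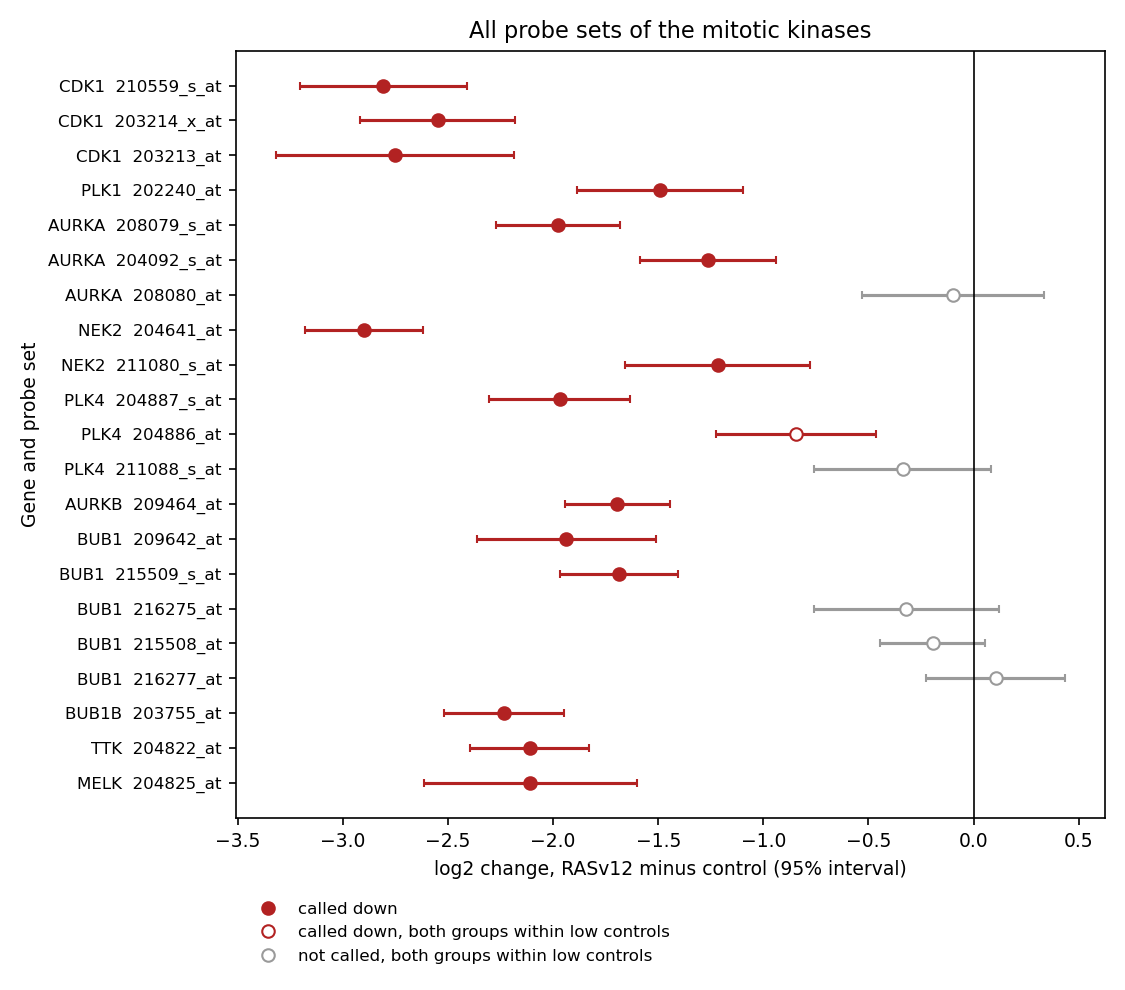
Log2 change (RASv12 minus control) of all 21 probe sets of the mitotic kinases, grouped by gene, with 95% intervals from limma; marker style separates probe sets called down from those not called and shows which lay within background in both groups. The 5 probe sets that were not called lie between -0.34 and 0.11, all within background in both groups.

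Partners of the kinases were described by lists of genes with a known role beside them. The calls in every list are to be read against 15.5% of all genes called down and 13.9% called up. The 6 measured cyclins and Cks subunits listed beside CDK1, with CCNF counted among them, all fell, with a median log2 change of -1.83. CCNB2, a B-type cyclin, had 24.8, 39.7 and 47.4 in RASv12 replicates 1 to 3, against 435, 417 and 402 in control replicates 1 to 3, and fell by 3.03 ± 0.13 (adjusted p = 1.2e-05). CCNB1, the main mitotic cyclin, averaged 73.9 ± 7.90 in RASv12 cells and 433 ± 21.0 in control cells (SD, n = 3 each) and fell by 2.31. CCNA2, which encodes cyclin A2, was at least 7.19-fold lower with RASv12. CKS1B, a small subunit that docks CDK1 to its substrates, fell by 1.34.

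The CDK1 phosphorylation switch was listed as the kinases and phosphatases that set the inhibitory phosphates on CDK1, with the PP2A inhibitors ENSA and ARPP19. Of 7 measured, 3 fell, 1 rose and 3 were not called, with a median of -0.51. CDC25B, a phosphatase that activates CDK1, averaged 101 ± 7.00 in RASv12 cells and 568 ± 10.7 in control cells (SD, n = 3 each) and fell by 2.31 ± 0.089 (adjusted p = 7.3e-06). CDC25C, of the same family, was at least 2.61-fold lower on its brightest probe set, and its other 2 probe sets lay within background in both groups and were not called. PKMYT1, which encodes the inhibitory kinase MYT1, was called down at -0.79 (adjusted p = 0.027), but not without RASv12 replicate 1 (adjusted p = 0.059), control replicate 1 (0.070) or control replicate 2 (0.052). ENSA, whose product inhibits the phosphatase PP2A-B55 in mitosis once phosphorylated, rose by 0.48 ± 0.10, and 2 of its 3 probe sets were not called. WEE1, the other inhibitory kinase, had a log2 change of -0.35 (adjusted p = 0.12).

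Cofactors of the Aurora kinases fell in 6 of 6 measured cases, with a median of -1.78. INCENP, the scaffold of the passenger complex, is counted among them although it lay within background on all 6 arrays. Without RASv12 replicate 2 or 3 or control replicate 1 or 3, 5 of the 6 were called. TPX2, which activates Aurora A on spindle microtubules, averaged 76.4 ± 8.66 in RASv12 cells and 392 ± 28.9 in control cells (SD, n = 3 each) and fell by 2.11. TACC3, a spindle protein and substrate of Aurora A, was at least 5.20-fold lower with RASv12. CDCA8, which encodes the passenger complex subunit borealin, had 4.27, 5.49 and 6.09 in RASv12 replicates 1 to 3, against 222, 237 and 230.0 in control replicates 1 to 3, and was at least 8.21-fold lower. BIRC5, which encodes survivin of the same complex, fell on all 3 of its probe sets, with log2 changes of -1.45 on the brightest and down to -3.84 on the others.

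Among 13 spindle checkpoint and kinetochore partners, 7 fell, 2 rose and 4 were not called, with a median of -1.11. Over all genes 15.5% were called down and 13.9% up. CENPE, a kinetochore motor that activates BUBR1, was at least 2.86-fold lower with RASv12, and NDC80, of the microtubule-binding complex, at least 2.63-fold. ZWINT, a kinetochore scaffold protein, fell by 1.97. TRIP13, an ATPase that takes checkpoint complexes apart, fell by 1.62. MAD2L1BP, which encodes the checkpoint silencer p31comet, had 289, 263 and 273 in RASv12 replicates 1 to 3, against 127, 149 and 140 in control replicates 1 to 3, and rose by 0.90 ± 0.099 (adjusted p = 6.6e-04). BUB3, the binding partner of BUB1 and BUBR1, was called up at 0.33 (adjusted p = 0.048) over genes, while none of its 4 probe sets was called over probe sets. The BUB3 call was lost without any 1 of RASv12 replicates 1, 2 and 3 and control replicates 1 and 3, with log2 changes of 0.28 to 0.40 and adjusted p of 0.048 to 0.13 over the 6 samples left out in turn.

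Centriole partners of PLK4 were mostly not called, with 2 of 7 down, 5 not called and a median of -0.51. STIL, which PLK4 phosphorylates to start a new centriole, was at least 1.77-fold lower with RASv12, with 2 of its 3 RASv12 arrays within background. CEP63, a centrosome protein, fell by 0.90 ± 0.12. CEP192, a scaffold that recruits PLK4, had -0.51 (adjusted p = 0.064), and it was called without the dimmest 25% of probe sets (adjusted p = 0.048). CCP110, which caps centrioles, had -0.84 (adjusted p = 0.10), and without RASv12 replicate 3 it was called at -1.15 (adjusted p = 0.027).

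Of 14 genes of the anaphase promoting complex and mitotic exit, 5 fell, none rose and 9 were not called, with a median of -0.25. CDC20, which activates the complex, averaged 46.6 ± 6.53 in RASv12 cells and 364 ± 34.9 in control cells (SD, n = 3 each) and fell by 2.60 ± 0.15. UBE2C, the ubiquitin-conjugating enzyme of the complex, fell by 2.13. PTTG1, which encodes the separase inhibitor securin, fell by 2.36. FBXO5, which encodes the inhibitor EMI1, was at least 1.35-fold lower. The core subunits ANAPC2, ANAPC5, ANAPC10, ANAPC13, CDC16 and CDC27 were not called, and CDC23 was called at -0.37 (adjusted p = 0.049). Only 4 genes of the list were down without any 1 of RASv12 replicates 1, 2 and 3 and control replicates 1 and 2. CDC20, UBE2C, PTTG1 and FBXO5 kept their calls there, so the call lost was that of CDC23.

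Phosphatases that oppose the mitotic kinases had a median of 0.13, with 3 of 17 up, 2 down and 12 not called, beside 13.9% up and 15.5% down over all genes. PPP2R2A, a B55 subunit of PP2A, rose by 0.98 ± 0.14, PPP2R5B by 0.50 and PPP2R1B by 0.44. For PPP2R1B, 3 of its 5 probe sets were not called. PPP2R5C, a B56 subunit, fell by 0.87 on its brightest probe set, and CDC14B changed by -0.67. The other 2 of the 3 PPP2R5C probe sets were not called, with a highest change of 0.053. The CDC14B call was lost with arrays scaled to the hybridization controls (-0.47, adjusted p = 0.090), a setting in which 7 of the 17 were up and 1 down.

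Of 14 regulators of late cell cycle genes, 5 fell, 1 rose and 8 were not called, with a median of -0.36. FOXM1, the forkhead activator of mitotic genes, had 17.2, 11.6 and 12.6 in RASv12 replicates 1 to 3, against 297, 229.7 and 283 in control replicates 1 to 3, and was at least 9.59-fold lower (adjusted p = 1.9e-05). MYBL2, of the activating MuvB complex, was at least 3.43-fold lower and its relative MYBL1 at least 7.51-fold lower. RBL2, which encodes the DREAM pocket protein p130, was called down (adjusted p = 0.040) and at least 1.71-fold lower, with its RASv12 mean within background and groups that overlapped after normalization. E2F4, its E2F partner, was not called at 0.32 (adjusted p = 0.44). TFDP1 changed by -0.50, and scaled to the hybridization controls by -0.15 (adjusted p = 0.34). NFYA, a subunit of the CCAAT-binding factor NF-Y, was called up at 0.37 (adjusted p = 0.045), and lost the call without any 1 of RASv12 replicates 1 and 3 and control replicates 1, 2 and 3 (adjusted p from 0.083 to 0.13). Over the 4 NFYA probe sets the changes ran from 0.37, on the brightest, to 1.20, and 2 were called up. The share of these list genes that fell is to be read against 15.5% of all genes called down.

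Of 10 other kinases with mitotic roles, 4 fell, 1 rose and 5 were not called, with a median of -0.18. PBK, a kinase of dividing cells, had 9.21, 18.5 and 8.76 in RASv12 replicates 1 to 3, against 259, 255 and 232 in control replicates 1 to 3, and was at least 8.88-fold lower. VRK1, which phosphorylates the chromatin tether BANF1, fell by 0.76. NEK9, an upstream activator of other NEK kinases, changed by -0.68 and TLK1, a kinase of chromatin assembly, by -0.64. Averaged over all their probe sets, NEK9 (adjusted p = 0.12) and TLK1 (adjusted p = 0.096) were not called. CSNK2A1, a catalytic subunit of casein kinase 2, rose by 0.56, and 3 of its 4 probe sets were called up. Its remaining probe set was not called, at -0.47. CHEK1 had -0.32 (adjusted p = 0.062).

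**Figure D4:**
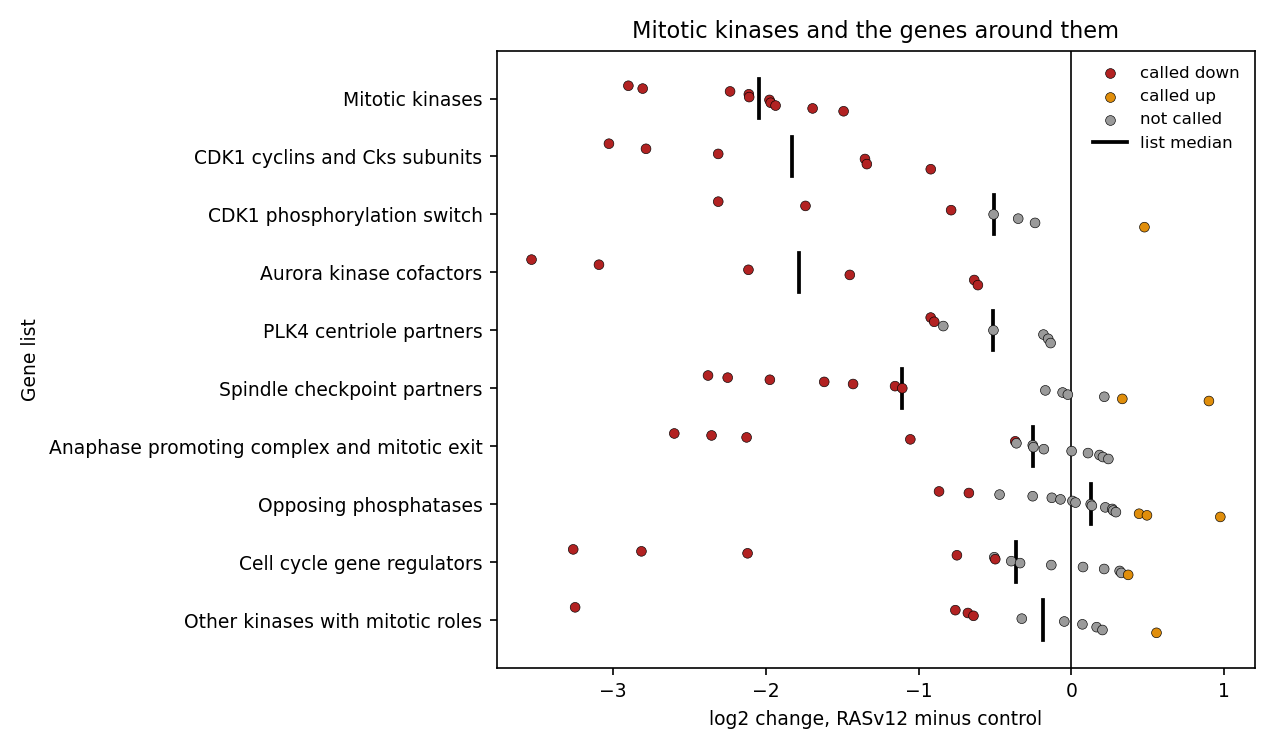
Log2 change (RASv12 minus control) of every measured gene of the mitotic kinases and 9 lists of partners, 1 point per gene by its brightest probe set, coloured by call, with a bar at each list's median. All points of the mitotic kinases, of the CDK1 cyclins and Cks subunits and of the Aurora cofactors lie below 0 and were called down, while the other lists mix calls.

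Relatives outside the 10 were set beside them, family by family, and NEK7 and NEK9 among them also stand with the other kinases of mitotic roles. Of 36 measured relatives, 5 fell, 7 rose and 24 were not called, with a median of 0.095. Over all genes 15.5% were called down and 13.9% up, and 6 of the 36 relatives lay within background in both groups. No relative had a 95% interval that overlapped the interval of a mitotic kinase of its own family, although SIK2 (-1.57 at its lower end) and MELK (-1.61 at its upper end) came close. Differences between genes were not tested.

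Among 16 CDK genes other than CDK1, 2 fell, 2 rose and 12 were not called. CDK17, a PCTAIRE kinase, had 611, 758 and 585 in RASv12 replicates 1 to 3, against 149.8, 122 and 136 in control replicates 1 to 3. All 3 RASv12 arrays lay far above the control arrays, and CDK17 rose by 2.14 ± 0.13 (adjusted p = 4.9e-05), with both of its probe sets called up. CDK20 rose by 0.80, with 2 of its 3 control arrays within background, and CDK19, a Mediator kinase, fell by 0.68. CDK2, the kinase of S phase, changed by -0.48 (adjusted p = 0.014), and scaled to the hybridization controls by -0.17 (adjusted p = 0.33). Without control replicate 2 the CDK2 change was -0.42 (adjusted p = 0.051). CDK4, a G1 kinase, was not called (-0.12, adjusted p = 0.53), and CDK6, the other G1 kinase, lay within background on all 6 arrays.

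In the Polo-like family, PLK3, a stress-responsive relative of PLK1, had 143, 119.7 and 154 in RASv12 replicates 1 to 3, against 42.1, 56.4 and 46.7 in control replicates 1 to 3. PLK3 rose by 1.31 ± 0.13 (adjusted p = 3.5e-04) with no overlap of the groups, although its other probe set was not called. PLK2, likewise induced by stress, was called at -0.33 (adjusted p = 0.035) and lost the call in 9 of 15 alternatives. PLK2 changed by -0.0015 with arrays scaled to the hybridization controls, and was not called without any 1 of RASv12 replicates 1 and 2 and control replicates 1, 2 and 3 (adjusted p from 0.079 to 0.093). PLK1 and PLK4 were called down in all 15.

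Among 5 NEK genes other than NEK2, 2 fell, 1 rose and 2 were not called. NEK3 was at least 2.15-fold lower with RASv12 on its brightest probe set, with 2 of 3 RASv12 arrays within background, and its other probe set was not called. NEK11 was called up at 0.52 (adjusted p = 0.019), and lost the call without RASv12 replicate 2 (adjusted p = 0.061), control replicate 2 (0.056) or control replicate 3 (0.071). NEK4 (0.39, adjusted p = 0.17) and NEK7 (-0.045, adjusted p = 0.85) were not called.

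Of 13 AMPK-related kinases other than MELK, none fell, 3 rose and 10 were not called, with a median of 0.12. SIK1, a salt-inducible kinase, had 56.1, 64.4 and 68.1 in RASv12 replicates 1 to 3, against 4.57, 2.78 and 4.80 in control replicates 1 to 3. SIK1 lay within background on all control arrays and was at least 2.24-fold higher on the RASv12 arrays (adjusted p = 1.4e-05). PRKAA1, a catalytic subunit of AMPK, was called up at 0.63 on its brightest probe set and not called on the mean of both (0.20, adjusted p = 0.19). NUAK1 was called up at 0.57 (adjusted p = 0.016), and not without control replicate 2 (adjusted p = 0.057) or control replicate 3 (0.053). SIK3 had -0.25 (adjusted p = 0.13) and was not called.

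**Figure D5:**
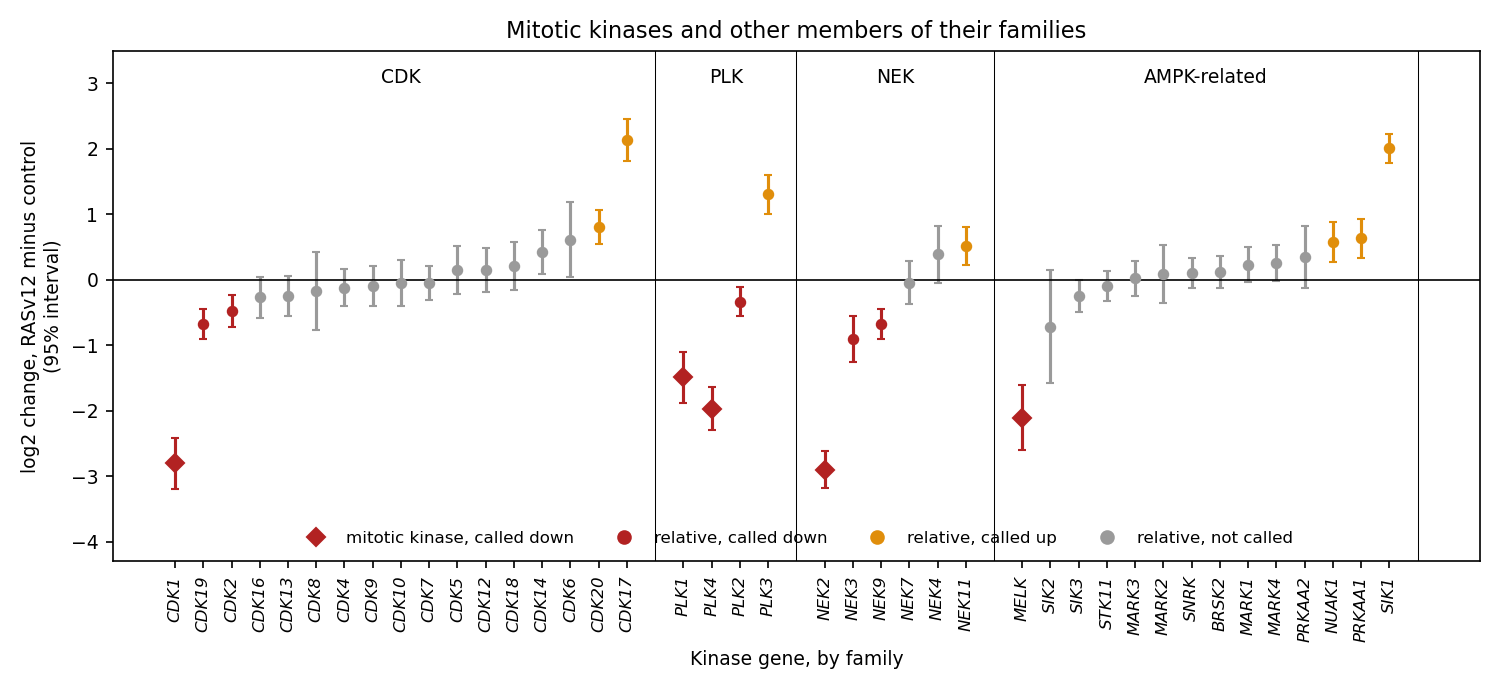
Log2 change (RASv12 minus control) with 95% intervals for mitotic kinases (diamonds) and measured relatives (circles) in the CDK, PLK, NEK and AMPK-related families, coloured by call. CDK1, PLK1, PLK4, NEK2 and MELK lie lowest in their families, while CDK17, PLK3 and SIK1 lie highest in theirs.

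The genes whose profile over the 6 arrays was closest to the mean profile of the 10 kinases were found by Euclidean distance between row-centred log2 values. The 5 nearest genes outside the 10 were MCM5 (distance 0.099), S100A4 (0.19), CKAP2 (0.19), SFRP1 (0.20) and DUT (0.21), while the kinases themselves lay between 0.17 and 1.02 from their own mean, with a median of 0.47. MCM5 had 37.8, 39.8 and 40.1 in RASv12 replicates 1 to 3, against 224, 230.2 and 219 in control replicates 1 to 3. CKAP2, a microtubule-associated protein, had 33.9, 46.5 and 37.5 in RASv12 replicates 1 to 3, against 226, 220.0 and 203 in control replicates 1 to 3. Since the arrays fall into 2 groups, a small distance says little more than that a gene fell by about as much as the kinases' mean, -2.12.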

How the data were processed

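The authors deposited 1 table of linear signal intensity per probe set for 6 arrays of the Affymetrix Human Genome U133 set (its A array, by the probe set identifiers), 3 RASv12 and 3 control. The submitters' processing notes name MAS5, which summarises the probes of a probe set. Version and scaling target: not given in the sources used here. The mean intensity of every array, with 2% trimmed from each end, was 100.0, so the deposited values had already been scaled. Precision is limited by the number of arrays.

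Of 22283 probe sets, 68 control probe sets were left out of the test. GEO's platform annotation, with symbols updated through RefSeq, gave 1 gene for 19065 probe sets, which were named. Another 1043 had several genes and 2107 had none. A gene was represented by its brightest probe set, the one with the highest mean log2 value. Intensities were transformed as log2(intensity + 16), which compresses the change of dim genes, quantile normalized over 22215 probe sets, and tested in R 4.3.3 by lmFit and eBayes of limma 3.58.1. P-values were adjusted by Benjamini-Hochberg over all genes or all probe sets. A gene past adjusted p of 0.05 is said to be called. The error given with a log2 change is limma's standard error (n = 3 each), and intervals are at 95%. In simulated data on the same probe sets, 59% of 2-fold and 89% of 4-fold changes were recovered, with 3.27% of calls false. The simulation changed 200 of 22215 probe sets, as many up as down, with independent noise. In the real data 2893 probe sets were called down and 2506 up, so these rates need not hold there.

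The kinases, the partner and marker lists and the tests were chosen with earlier results of these data known, so no count over a list is independent support. Named genes are the 10 kinases, from each list the 4 measured genes of largest absolute moderated t, called genes of opposite sign to most of their list, and the 5 nearest profiles. Other genes were named after their values were seen. Replicate numbers were checked for pairing. Deviations of same-numbered samples correlated at -0.23, -0.028 and -0.070, so the numbers were not taken as pairs. No label or header gives a batch. Alternatives were other normalizations, pseudocounts of 1 and 64, filters on dim probe sets, the mean of a gene's probe sets, a replicate block and leaving out each sample.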

Additional observations from a re-analysis of the deposited data

How the results depend on the processing

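All 10 kinases were called down in all 15 alternatives, and all 150 single-gene results for them kept direction and call. Their median log2 change, -2.04 as reported, was -1.83 with arrays scaled to the hybridization controls, -2.81 with a pseudocount of 1, -1.22 with a pseudocount of 64 and -1.88 with the mean of a gene's probe sets, and from -2.15 to -1.94 with each sample left out. Between 13 and 16 of their probe sets were called over 14 alternatives, and between 52 and 62 partner and relative genes against 59. Hybridization controls differed by -0.34 on the log2 scale (RASv12 minus control), with 18 of 18 probe sets lower. Scaling to them moved the median of all genes by 0.18, and gave 2821 genes up and 1041 down against 1665 and 1854, so that 73.0% of calls were rises against 47.3%. The direction turned for BUB3 (-0.055) and SIK3 (0.14) with the mean of probe sets. The cause was not tested. With the replicate number as a block, 10 kinases and 16 of their probe sets were called at the same median of -2.04, 54 partner and relative genes and 2721 genes in all, and 0 of 3 RASv12 samples correlated best with their own number. Dim signal limits 8 of the 10 falls to a lower bound.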
